A study of Mus musculus with 18 samples.

Results

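Cx3cr1, the gene of the fractalkine receptor, was followed here through 18 RNA libraries of purified mouse microglia. It is 1 of the 55414 gene identifiers in the count tables and 1 of the 10948 genes with enough counts to be tested. It was picked by name, with its lower level in knockout libraries already known, so its own values are given as a description, with no test. The libraries were labelled by sex and by Chd8 genotype: 4 female KO (knockout), 4 female WT (wild type), 5 male KO and 5 male WT. The protein CHD8 is an ATP-dependent remodeler of chromatin. All libraries came from brain, and the labels give neither age nor strain, nor how, in which cells or with which driver Chd8 was altered. Expression was read out by bulk MARS-seq. This method sequences the 3' ends of polyadenylated RNA, and a random barcode on every molecule, the unique molecular identifier (UMI), lets amplified copies be counted once. Nothing in the labels says that the libraries of a group came from separate animals, so p-values below measure the spread between these libraries, which may be technical.

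Fractalkine (Cx3cl1) is a chemokine that neurons hold on their surface, and in the brain its receptor is made chiefly by microglia. The metalloproteases Adam10 and Adam17 and the cathepsin Ctss can release it in soluble form. The receptor signals through inhibitory G proteins to phosphoinositide 3-kinase, Akt and MAP kinases, and is switched off by receptor kinases, arrestins and RGS proteins. Signalling through it is known to restrain microglial activation and to take part in synapse pruning, and the transcript is counted among the homeostatic genes of these cells. Mouse lines with a reporter or a Cre recombinase placed in the Cx3cr1 locus are in wide use for marking or targeting microglia, and such an insertion disrupts the copy that carries it. The labels do not say whether the KO or WT mice of this study carried an allele of this kind. The count tables record no genotype at the locus, so whether an altered Cx3cr1 allele had a part in the values below was not tested.

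In GENCODE M21, on GRCm38 (mm10), Cx3cr1 (ENSMUSG00000052336) lies on the minus strand of chromosome 9, from 119901616 to 120069879. The whole coding sequence, 1062 bases from 120051273 to 120052334, sits in a single exon that all 3 transcript models share. The models differ in their 5' exons and 3' ends. Transcripts 201 and 203 end at 120048683, and transcript 202 has a further 12-base exon at 119901616 to 119901627, inside the gene Wdr48. The annotated gene body therefore spans other genes, among them Gorasp1, Ttc21a, Csrnp1 and Xirp1, and the antisense RNA gene Gm33858 overlaps its 5' end.

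Library depth ranged from 435838 to 9149144 UMIs and from 2405764 to 17313836 reads. The number of reads per UMI fell into 3 separate ranges: 1.79 to 1.89 in 8 libraries, 2.94 to 3.12 in 6 and 5.52 to 7.26 in 4. No female WT library was in the low range and no male library in the high range, so these ranges and the groups partly coincide. Homeostatic genes of microglia were abundant in every library, with summed levels of 83956 to 142610 CPM (counts scaled to a common library total) over 30 listed genes other than Cx3cr1.

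Cx3cr1 was among the most abundant transcripts and was lower in KO than in WT libraries of both sexes. Levels of single genes are given as CPM scaled by TMM factors, which correct for differences in library makeup. In male WT, replicates 13, 37, 10, 11 and 14 held 2981, 3477, 2457, 2505 and 2907 CPM of Cx3cr1. In male KO, replicates 36, 6, 9, 17 and 40 held 1622, 1055, 1620, 907 and 1268. Every male KO library was below every male WT library, with a gap between 1622 and 2457 CPM. Of all tested genes, 4.58% had all male KO libraries below all male WT libraries. In female WT, replicates 34, 39, 31 and 30 held 4196, 3267, 2815 and 3847 CPM. In female KO, replicates 33, 16, 1 and 7 held 2452, 1884, 2984 and 2514. The female groups overlapped through a single pair of libraries, KO replicate 1 and WT replicate 31. The share of tested genes with no overlap in that direction was 2.84% in females.

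**Figure D1:**
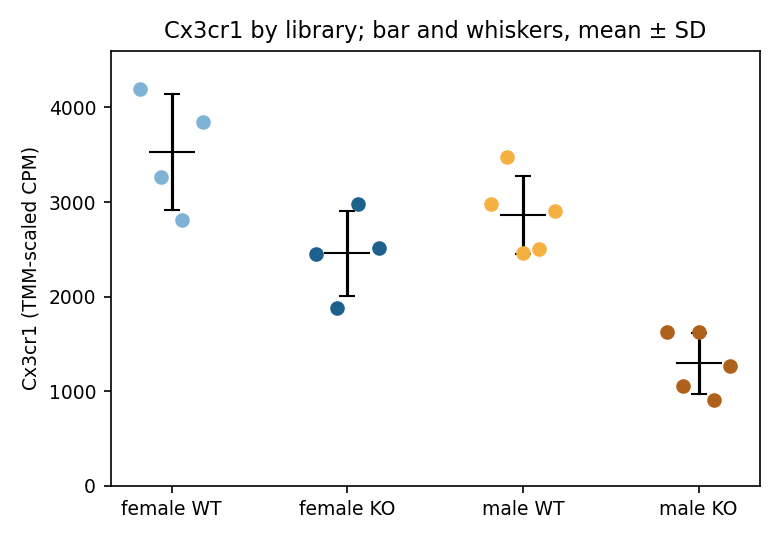
Cx3cr1 level (TMM-scaled CPM, linear axis from 0) in each of the 18 libraries by group. Points are libraries, horizontal bars are group means and whiskers are 1 SD; the 5 male KO points lie between 907 and 1622, below all 5 male WT points, while the female groups overlap between 2815 and 2984.

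The mean Cx3cr1 level was 3531 ± 612 CPM in female WT (SD, n = 4) and 2865 ± 414 in male WT (SD, n = 5). It was 2459 ± 451 in female KO (SD, n = 4) and 1294 ± 325 in male KO (SD, n = 5). From high to low the order was female WT, male WT, female KO, male KO. Female and male WT overlapped, and so did male WT and female KO, so neither step exceeded the spread of the libraries. Female KO and male KO did not overlap, since the lowest female KO library (1884 CPM) was above the highest male KO library (1622 CPM). Male KO libraries were likewise all below female KO libraries in 4.52% of tested genes. The KO mean was 45.2% of the WT mean in males and 69.6% in females.

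On the fitted log2 scale, Cx3cr1 differed between KO and WT by -1.15 ± 0.16 (SE) in males and by -0.52 ± 0.18 in females. The KO effect in females minus that in males was 0.63 ± 0.24, with no test of Cx3cr1 itself. In this contrast 0.183% of all tested genes passed, and 10268 of the 10948 tested genes had a lower value than Cx3cr1. Male minus female was -0.30 ± 0.17 in WT and -0.93 ± 0.17 in KO. The KO effects share no libraries, but each male-female difference shares libraries with the KO effects. Over the other tools, scalings, filters and sets of libraries tried, the male KO effect stayed between -1.29 and -0.97 and the female one between -0.61 and -0.40. The difference between sexes stayed between 0.48 and 0.74. In bulk RNA, fewer cells with the transcript and less of it per cell cannot be told apart.

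The position of Cx3cr1 among all transcripts moved with these levels. It ranked 16 to 28 by UMI count in the WT libraries, 21 to 42 in female KO and 41 to 129 in male KO. Of the 113 genes with a mean of at least 1000 CPM, Cx3cr1 had the lowest fitted log2 fold change in the male KO comparison. Among all 10948 tested genes, 110 had a lower one. In females 10 of those 113 abundant genes had a lower fold change than Cx3cr1, 8 of them ribosomal protein genes or Fau, which encodes a ribosomal protein, together with Cd74 and Tpt1. Counting error was small at these depths. In the shallowest library, female KO replicate 33, 958 of 435838 UMIs gave 2198 CPM by library total, with an exact binomial 95% interval of 2061 to 2342. In male KO replicate 17 the corresponding level was 919, with an interval of 886 to 953. These intervals cover counting error only.

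With reads in place of UMIs, the KO mean of Cx3cr1 was 44.5% of the WT mean in males and 71.3% in females. Reads per UMI of Cx3cr1, divided by that of its library, averaged 1.04 ± 0.027 in male KO and 1.06 ± 0.021 in male WT (SD, n = 5 each), with overlapping libraries. In females both means were 1.04.

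Within the low reads-per-UMI range, the 4 male KO libraries held 907 to 1622 CPM of Cx3cr1 and the 3 male WT libraries 2457 to 3477. Within the middle range, male KO replicate 9 held 1620 and the 2 male WT libraries 2505 to 2907. Male KO was below male WT in both ranges that hold male libraries, an order already set because the male groups did not overlap. In females the middle range held 2514 to 2984 CPM in 2 KO libraries against 3267 in WT replicate 39, and the high range held 2452 in KO replicate 33 against 2815 to 4196 in 3 WT libraries. Female KO was below female WT in each of these ranges, but in each of them either KO or WT was a single library. The remaining female library, KO replicate 16 with 1884 CPM, was the only female library of the low range and has no WT counterpart there.

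Chd8, the targeted gene, was measured at 95.9 to 116 CPM in male KO against 134 to 166 in male WT. In females the ranges were 115 to 138 in KO and 131 to 185 in WT, which overlapped. The log2 difference was -0.54 ± 0.10 in males (SE, edgeR quasi-likelihood adjusted p = 0.00148) and -0.44 ± 0.12 in females (adjusted p = 0.0588). Chd8 transcript thus remained at 68.6% of the WT mean in male KO and 74.3% in female KO. Reads at the 3' end need not cover the altered part of a gene, so these levels are a limited check of the labels. In males the Chd8 call was lost when read counts replaced UMIs and without KO replicates 6, 9 and 17 together, with adjusted p up to 0.0839. The female difference in Chd8 did pass in 3 alternatives, DESeq2 and the fits that left out either female KO replicate 33 or female WT replicate 39, with an adjusted p of 0.0183 at the lowest.

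Across the 18 libraries the levels of Cx3cr1 and Chd8 had a Pearson r of 0.84 on the log2 scale, which ranked Chd8 10th of 8056 genes by likeness to Cx3cr1. After the 4 group means were taken out, r was 0.35 and the rank 781. The points fall into groups that differ in both genes, so the first value describes the groups more than the libraries within them.

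**Figure D2:**
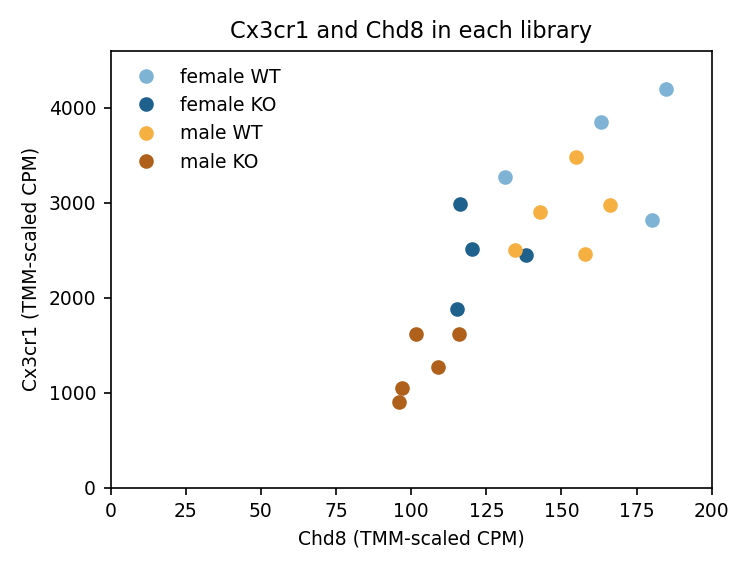
Cx3cr1 level against Chd8 level in each library (both TMM-scaled CPM on linear axes from 0), coloured by group. The 5 male KO libraries hold at most 116 CPM of Chd8 and at most 1622 CPM of Cx3cr1, and within a group the 2 genes follow each other less closely (r = 0.35 after group means are removed).

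The list of genes that act with the receptor, called the fractalkine pathway here, held 32 genes other than Cx3cr1, of which 30 were tested. In males none rose and none fell at an adjusted p under 0.05, where 6.21% of all tested genes passed, 3.37% as higher and 2.84% as lower. Their log2 differences ran from -0.25 to 0.52 with a median of -0.01, the same as that of all tested genes. In females none rose and 1 fell, where 2.30% of all tested genes passed, 0.786% as higher and 1.52% as lower, and the median was 0.02 against 0.01 for all tested genes. Female calls rest on the spread shared with the male libraries: the edgeR fit of females alone called 0 genes (825 at an unadjusted p under 0.05), and DESeq2 over all libraries called 352, against 252 here. The male count became 1 in 10 of 30 alternatives.

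The ligand Cx3cl1 was barely detected, with 64 UMIs over all libraries and none in 4 of the 18, and was too low to test. Of the proteases that release it, Adam17 was at 159 CPM in male KO and 165 in male WT (log2 difference -0.05 ± 0.09, adjusted p = 0.856), and at 164 and 175 in females. Adam10 was less abundant, at 37.4 and 34.6 CPM in male KO and WT and 23.3 and 23.1 in females. Ctss, a lysosomal cysteine protease, was above Cx3cr1 in every group mean, at 7007 against 7475 CPM in males and 5975 against 6565 in females, with log2 differences of -0.09 ± 0.14 and -0.14 ± 0.16. These are levels of 3' tags, which do not scale with transcript length. None of the 3 passed in either sex.

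Gnai2, the inhibitory G protein alpha subunit most abundant here, was at 1873 and 1889 CPM in male KO and WT and at 2366 and 2263 in females. The single member that fell was Gng5, a G protein gamma subunit, in females. Its replicates 33, 16, 1 and 7 of female KO held 220, 132, 189 and 174 CPM, and replicates 34, 39, 31 and 30 of female WT held 298, 225, 263 and 266, with no overlap. The log2 difference of Gng5 was -0.58 ± 0.15 (adjusted p = 0.0374), and it no longer passed in 13 of 29 alternatives, with adjusted p up to 0.372. Of those, 10 left out a single library: female KO replicate 16, 1 or 7, female WT replicate 34, 31 or 30, male KO replicate 36, or male WT replicate 13, 37 or 10. In males Gng5 was at 127 and 144 CPM (adjusted p = 0.502).

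The members that switch the receptor off or carry its signal on did not pass in either sex. The 4 desensitisation genes (Grk2, Grk6, Arrb1 and Arrb2) had log2 differences of -0.25 to 0.00 in males and -0.60 to 0.21 in females. The 4 tested RGS genes, among them Rgs10, lay between -0.13 and 0.20 in males and between 0.05 and 0.42 in females. The 8 kinase effectors, which include Pik3cg, Akt1, Syk and Mapk3, lay between -0.10 and 0.16 in males and between -0.30 and 0.17 in females.

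Among 28 other receptors for chemokines and related attractants, 11 passed the filter on low counts. Because a gene can pass through the group in which it is high, these 11 do not stand for the 28. In males none rose and 1 fell, where 2.84% of all tested genes fell, with a median log2 difference of -0.38 against -0.01 for all tested genes. Cmklr1, the chemerin receptor, held 146 to 183 CPM in male KO against 185 to 254 in male WT. Its log2 difference was -0.44 ± 0.12 (adjusted p = 0.0209). Cmklr1 no longer passed in 9 of 30 alternatives, with adjusted p up to 0.299, among them leaving out male KO replicate 36, 9, 17 or 40 or male WT replicate 10 or 11.

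In females 1 of the 11 receptors fell, where 1.52% of all tested genes fell, and the median was -0.13. Cxcr4, the receptor for Cxcl12, held 7.68, 5.86, 6.66 and 5.19 CPM in female KO replicates 33, 16, 1 and 7 against 17.8, 29.5, 8.94 and 37.7 in female WT replicates 34, 39, 31 and 30. Its log2 difference was -1.97 ± 0.49 (adjusted p = 0.0357), and it no longer passed in 10 of 28 alternatives, with adjusted p up to 0.168. Leaving out female KO replicate 16, 1 or 7, female WT replicate 34, 39 or 30, or male WT replicate 37 was enough. Cxcr4 is also made by neutrophils and monocytes, whose summed markers were lower in the female KO mean (2398 against 7148 CPM for neutrophils and 113 against 357 for monocytes), and the part of these cells in its level was not tested.

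Of 30 homeostatic microglial genes, all tested, none rose and 2 fell in male KO, where 2.84% of all tested genes fell, and 25 of 30 had a negative log2 difference, with a median of -0.12. In females none rose and 1 fell, where 1.52% of all tested genes fell, 11 of 30 were negative and the median was 0.07. The log2 differences of the 30 in males ran from -0.76 to 0.26, against -1.15 for Cx3cr1.

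Ltc4s, which makes leukotriene C4, had the lower adjusted p of the pair in males. Its level was 684, 668, 738, 780 and 704 CPM in male KO replicates 36, 6, 9, 17 and 40 against 1367, 1149, 1217, 1140 and 1198 in male WT replicates 13, 37, 10, 11 and 14. No male KO library reached a male WT library. The log2 difference of Ltc4s was -0.76 ± 0.11 (adjusted p = 0.000148), and it passed in each of the male alternatives run. In females it was -0.38 ± 0.13 (adjusted p = 0.1253), and it passed there without female KO replicate 33 (adjusted p = 0.0244).

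Olfml3, a secreted glycoprotein, was 73.4 to 82.7 CPM in male KO against 92.6 to 123 in male WT, a log2 difference of -0.42 ± 0.11 (adjusted p = 0.0201). In females it held 90.7 to 136 CPM in KO and 128 to 165 in WT, a log2 difference of -0.52 ± 0.13 (adjusted p = 0.0351). The female groups of Olfml3 overlapped through KO replicate 33 and WT replicate 39. The male call was lost in 7 of 30 alternatives, including without male KO replicate 36, 6 or 17 or male WT replicate 13 or 37, with adjusted p up to 0.381. The female call was lost in 14 of 29, including without female KO replicate 16, 1 or 7, female WT replicate 34 or 30, male KO replicate 36 or 40 or male WT replicate 37, with adjusted p up to 0.395.

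Of the markers of these cells, 5 chosen here after their values were seen did not pass in either sex. The purinergic receptor P2ry12 had a log2 difference of 0.11 ± 0.23 in males and 0.49 ± 0.26 in females, and Tmem119 of -0.17 ± 0.14 and 0.16 ± 0.16. The growth factor receptor Csf1r had -0.10 ± 0.16 and 0.27 ± 0.18, the lectin Siglech -0.22 ± 0.13 and 0.28 ± 0.15, and the lipid-sensing receptor Trem2 0.09 ± 0.13 and 0.11 ± 0.14.

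Set against the summed UMIs of the 30 homeostatic genes, Cx3cr1 amounted to 3.35% ± 0.75 in female WT, 2.72% ± 0.45 in male WT, 2.40% ± 0.74 in female KO and 1.41% ± 0.34 in male KO (SD, n = 4 or 5). On that scale the KO mean was 52.0% of the WT mean in males and 71.6% in females. The homeostatic sum itself was 94842 ± 8733 CPM in male KO and 105684 ± 1784 in male WT (SD, n = 5). In females the homeostatic sum was 106911 ± 23805 in KO and 102231 ± 4825 in WT (SD, n = 4), with KO replicate 33 at 142610. Cst3 weighed heavily in these sums, at 33369 CPM in male KO and 40476 in male WT. In females Cst3 was at 44478 ± 20092 CPM in KO and 48027 ± 3586 in WT (SD, n = 4).

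Of 17 transcription factors of microglia, all tested, none rose and 2 fell in males, where 2.84% of all tested genes fell, with a median log2 difference of -0.18. None passed in females, where the median was 0.08 and DESeq2 called 1. Maf held 86.7 to 108 CPM in male KO against 124 to 146 in male WT, without overlap, a log2 difference of -0.45 ± 0.13 (adjusted p = 0.0334). Bhlhe41 was near the filter at 3.01 and 7.06 CPM in male KO and WT, a log2 difference of -1.32 ± 0.36 (adjusted p = 0.0257), with overlapping libraries. Maf no longer passed in 11 of 30 alternatives and Bhlhe41 in 7 of 29, with adjusted p up to 0.345 and 0.348. For Maf it was enough to leave out male KO replicate 36, 6, 9 or 17 or male WT replicate 13, 37, 10 or 14, and for Bhlhe41 male KO replicate 36, 17 or 40 or male WT replicate 37 or 14.

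**Figure D3:**
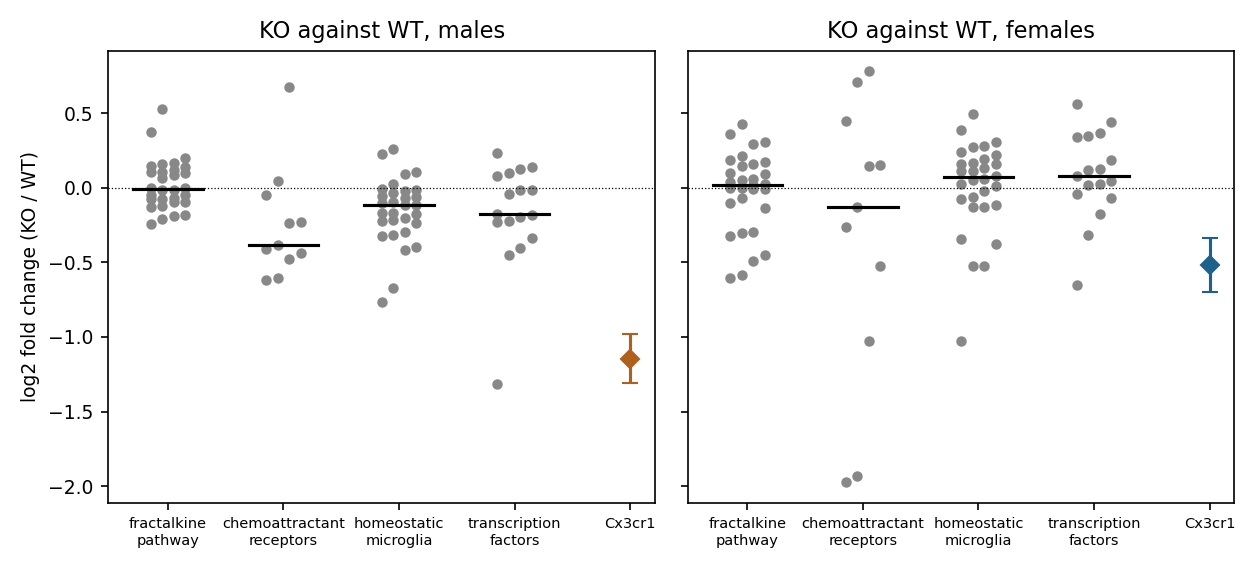
Fitted log2 fold change (KO over WT) of the tested members of 4 gene lists beside Cx3cr1, in males (left) and females (right). Grey points are genes, black lines are list medians and the whiskers on Cx3cr1 are 1 SE; Cx3cr1 at -1.15 in males lies below every point but Bhlhe41 (-1.32), and at -0.52 in females it lies among the lowest points of each list.

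Of 36 other tested genes within 2 Mb of Cx3cr1 on chromosome 9, 1 rose and 4 fell in male KO, where 3.37% of all tested genes rose and 2.84% fell. Their median log2 difference was 0.03, and 17 of 36 were negative. In females none rose and 2 fell, where 1.52% of all tested genes fell, with a median of -0.06. The nearest tested genes that did not pass in either sex were Acaa1a, Xylb and Exog on the lower-coordinate side, Gorasp1 and Csrnp1 inside the Cx3cr1 gene body and Slc25a38 on the other side. Their log2 differences lay between -0.25 (Exog) and 0.33 (Slc25a38) in males and between 0.06 (Acaa1a) and 0.40 (Slc25a38) in females. Csrnp1, whose gene lies wholly within the annotated Cx3cr1 gene body, was at 31.4 and 33.0 CPM in male KO and WT.

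A pair of the neighbours that fell in males overlap the Cx3cr1 gene body. Wdr48, a cofactor of deubiquitinases (plus strand, 119894878 to 119926587), held 42.1 to 52.5 CPM in male KO against 61.0 to 71.3 in male WT, a log2 difference of -0.50 ± 0.11 (adjusted p = 0.00731). Gm33858 (plus strand, 120068996 to 120070622) held 24.8 to 45.8 CPM in male KO against 49.7 to 75.3 in male WT, a log2 difference of -0.76 ± 0.16 (adjusted p = 0.00333). The only annotated Cx3cr1 exons within these genes are the 12-base exon of transcript 202 in Wdr48 and a 78-base 5' exon of transcript 203 in Gm33858. Whether counting used the strand is not given in the sources used here. Reads of Cx3cr1 and of these plus-strand genes therefore cannot be told apart within these short stretches. In females their log2 differences were -0.24 ± 0.14 and -0.15 ± 0.20, and neither passed.

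Acvr2b, an activin receptor 0.47 Mb away (plus strand, 119402118 to 119434995), held 16.2 to 36.2 CPM in male KO against 38.4 to 51.8 in male WT, a log2 difference of -0.83 ± 0.17 (adjusted p = 0.0026). Wdr48, Gm33858 and Acvr2b no longer passed on read counts, and the first and second of these also not without male KO replicates 6, 9 and 17 together. Mobp, a myelin gene of oligodendrocytes (plus strand, 120149707 to 120181484), rose by 3.66 ± 0.61 in males (adjusted p = 0.00145). The other oligodendrocyte markers are described below.

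Rpsa, a ribosomal protein gene (plus strand, 120127689 to 120132369), fell in females. Its level was 1029, 727, 837 and 746 CPM in female KO replicates 33, 16, 1 and 7 against 1292, 1317, 1066 and 1307 in female WT replicates 34, 39, 31 and 30. The log2 difference of Rpsa was -0.58 ± 0.13 (adjusted p = 0.0194), and it no longer passed in 7 of 29 alternatives, including without female KO replicate 16, 1 or 7 or female WT replicate 30, with adjusted p up to 0.291. Ribosomal protein genes have near-identical copies in the genome, so how reads were divided among them is uncertain. The male difference was -0.26 ± 0.11 (adjusted p = 0.227).

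Lyzl4, a lysozyme-like gene 1.51 Mb from Cx3cr1 (minus strand, 121577843 to 121642096), was the neighbour that fell in both sexes. It was low in all libraries. Male KO replicates 36, 6, 9, 17 and 40 held 1.89, 1.09, 2.48, 1.53 and 1.62 CPM, and male WT replicates 13, 37, 10, 11 and 14 held 11.7, 15.2, 8.46, 10.1 and 8.56, with no overlap. In females Lyzl4 held 17.9, 4.46, 3.59 and 2.75 CPM in KO replicates 33, 16, 1 and 7 and 35.6, 11.1, 11.7 and 19.3 in WT replicates 34, 39, 31 and 30, where KO replicate 33 overlapped WT. The log2 difference was -2.65 ± 0.38 in males (adjusted p = 8.7e-05), which passed in each of the 30 alternatives, and -1.89 ± 0.44 in females (adjusted p = 0.023). The female call was lost in 8 of 29 alternatives, including without female KO replicate 16, 1 or 7 or female WT replicate 34 or 30, with adjusted p up to 0.301.

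**Figure D4:**
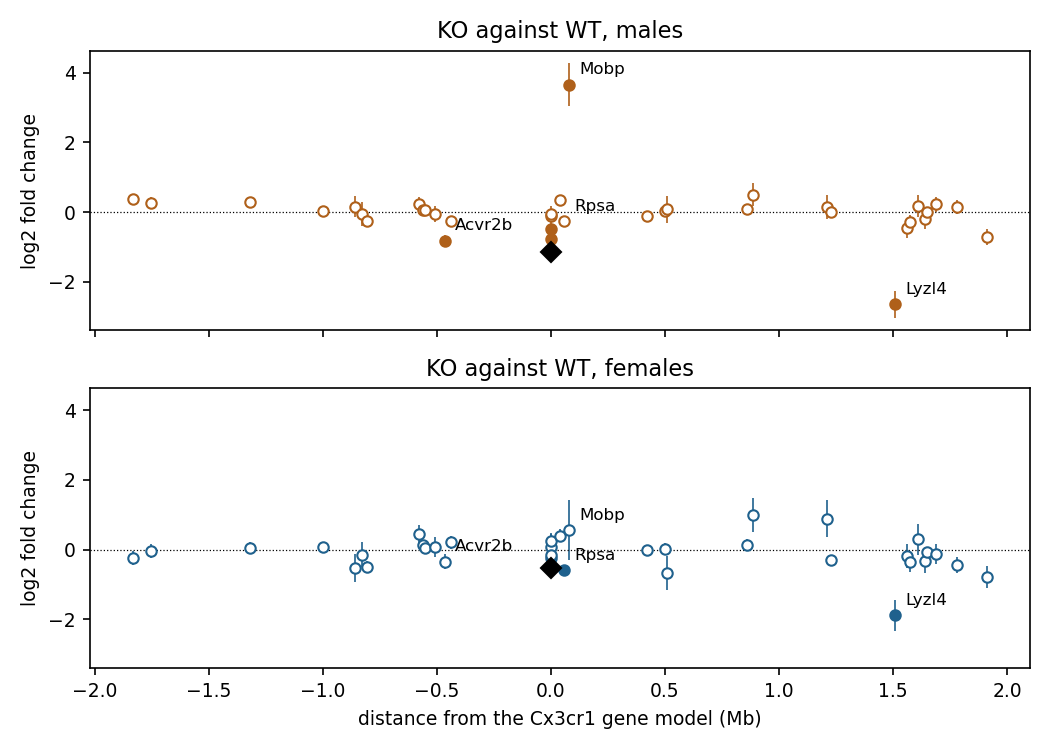
Fitted log2 fold change (KO over WT) of the 36 tested genes within 2 Mb of Cx3cr1 against their distance from its gene body (Mb), in males (top) and females (bottom). Filled points passed an adjusted p under 0.05, whiskers are 1 SE, and the black diamond is Cx3cr1; the filled points at distance 0 in males are Wdr48 (-0.50) and Gm33858 (-0.76), and most open points lie near 0.

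Likeness of pattern was measured as Pearson r with Cx3cr1 on log2 CPM over all 18 libraries, among the 8056 genes whose log2 CPM averaged 3 or more. The values are descriptive, since libraries of a group share their group mean and the libraries differ in depth. The 5 highest were Cdk16, a cyclin-dependent kinase (r = 0.90), Rnf25, a ubiquitin ligase (0.89), Otub1, a deubiquitinase (0.88), Zfp865, a zinc finger protein (0.87), and Atp6v0b, a subunit of the vesicular proton pump (0.86). With the group means taken out, r was 0.82 for Rnf25, 0.70 for Atp6v0b, 0.69 for Otub1, 0.43 for Cdk16 and 0.35 for Zfp865. Rnf25 was thus near Cx3cr1 by both measures, at rank 2 over all libraries and rank 6 within groups.

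These genes were chosen for a pattern that the KO and WT groups of Cx3cr1 set in part, so their KO against WT differences are given as values, with no test. Levels of Rnf25 were 43.9 to 70.8 CPM in male KO against 61.7 to 93.0 in male WT, with overlap, a log2 difference of -0.43 ± 0.14 (SE). Zfp865 had a WT mean of 52.4 CPM and a KO mean of 30.3 in males, a log2 difference of -0.80 ± 0.15. For Otub1 the male difference was -0.73 ± 0.18, for Cdk16 -0.34 ± 0.10 and for Atp6v0b -0.31 ± 0.12. In females the 5 ranged from -0.43 for Rnf25 to -0.20 for Atp6v0b.

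Within groups the highest r belonged to Nop10, a part of small nucleolar particles (0.86), the F-box gene Fbxo33 (0.84), the lymphoid surface protein Cd48 (0.83), Sympk, a factor of mRNA 3' processing (0.83), and Riok1, a kinase of ribosome maturation (0.82). Among the 30 homeostatic genes P2ry13 had the lowest within-group r, at -0.50. The top 5 are not a fixed set. By Spearman rho 2 of the 5 over all libraries and 2 of the 5 within groups stayed in the top 5, and with 1 library left out 2 to 5 did.

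The most opposed patterns were those of Csf2ra, the alpha chain of the GM-CSF receptor (r = -0.89), Dck, a deoxynucleoside kinase (-0.88), and Chek2, a checkpoint kinase of the DNA damage response (-0.85). Csf2ra held 1026, 1194, 897, 1274 and 1117 CPM in male KO replicates 36, 6, 9, 17 and 40 and 385 to 505 in male WT, with no overlap, which held in this direction for 5.27% of tested genes. Its log2 difference was 1.24 ± 0.13 in males, and in females it was at 697 against 507 CPM, a difference of 0.47 ± 0.15. Chek2 differed by 1.27 ± 0.15 in males and 1.32 ± 0.21 in females, and Dck by 0.65 ± 0.16 and 0.33 ± 0.21. These genes too were chosen for their pattern, so no test is given.

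Markers of other brain cells differed between male KO and male WT libraries, and their part in the level of Cx3cr1 was not tested. Summed over 10 neuronal markers, male KO libraries held 195 ± 116 CPM (range 71.7 to 339) and male WT 23.6 ± 10.2 (range 14.7 to 39.2; SD, n = 5 each). For 9 astrocyte markers the sums were 637 ± 149 and 370 ± 44.5 CPM, and for 8 oligodendrocyte markers 568 ± 245 and 192 ± 21.8. Glul and Slc1a3 made up most of the astrocyte sum, at 231 and 193 CPM in male KO and 206 and 138 in male WT. Neither passed in males, while 4 of the 6 astrocyte markers tested rose. Of the 6 oligodendrocyte markers tested, 3 rose and 1 fell in males. Mbp, a myelin protein, made up most of the oligodendrocyte sum in male KO but not in male WT. It was at 385 CPM in male KO and 56.4 in male WT (log2 difference 2.75 ± 0.41, adjusted p = 0.000732). Cnp, a myelin enzyme, fell from 72.0 to 50.04 CPM (log2 difference -0.52 ± 0.12, adjusted p = 0.0069), without overlap. The KO and WT ranges of the neuronal, astrocyte and oligodendrocyte sums did not overlap in males. Each gave the smallest p that 5 against 5 libraries allow (exact two-sided permutation p = 0.00794, adjusted p = 0.0476 over 18 tests). No call of the 3 survived leaving out a single male WT library, although the KO and WT ranges still did not overlap. With fewer WT than KO libraries, a relabelling of the opposite sign can also reach the observed difference. Each call survived leaving out any single male KO library. The neuronal and oligodendrocyte sums were highest in male KO replicates 6, 9 and 17. Replicate 9 was the highest in the neuronal, astrocyte and oligodendrocyte sums (339, 866 and 881 CPM). Its Cx3cr1 level of 1620 CPM was near the highest of male KO (1622), while replicates 6 and 17 held the lowest (1055 and 907). Without replicates 6, 9 and 17 together, the log2 difference of Cx3cr1 in males was -0.98 ± 0.20 (SE), against -1.15 with them.

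Border-associated macrophages also make Cx3cr1 at lower levels. Of their 10 markers, 8 rose in male KO, where 3.37% of all tested genes rose. None passed in females, where 2.30% of all tested genes did. By library total, Lyve1 was at 1.08 and 2.37 CPM in male and female WT and at 7.19 and 6.55 in KO. Cd163, Cd209f and F13a1 were at 2.04, 1.89 and 3.34 CPM in male WT. These genes may have passed the filter on low counts through the groups in which they were high, which limits the count. Cbr2 rose by 2.45 ± 0.25 on the log2 scale in males (7.40 to 41.8 CPM, adjusted p = 2.2e-06), Pf4, a platelet and macrophage chemokine, by 1.84 ± 0.22 (20.2 to 71.9 CPM, adjusted p = 1.64e-05) and Cd209f, a lectin, by 3.17 ± 0.39 (adjusted p = 2.56e-05). The sum over the 10 markers was 1072 ± 130 CPM in male KO and 940 ± 94.1 in male WT (SD, n = 5 each, exact permutation p = 0.111, adjusted p = 0.25). Most of this sum was Stab1, at 858 CPM in male KO and 887 in male WT, which did not pass (log2 difference -0.09 ± 0.12). The sum therefore says little about the other markers. In WT, 8 of these 10 markers were lower in males than in females, as were all 8 tested monocyte and all 9 neutrophil markers, where 17.0% of all tested genes passed and 10.1% were lower in males. In KO, none of the 10, 2 of the 8 and 4 of the 9 were lower in males, where 6.68% of all tested genes passed and 4.06% were lower in males. The part of these cells in the differences of Cx3cr1 between sexes was not tested.

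In females the sum of 11 monocyte markers was 113 ± 16.3 CPM in KO and 357 ± 158 in WT (SD, n = 4 each; exact permutation p = 0.0571, adjusted p = 0.147), and Ly6c2, Napsa and Fn1 fell. Ly6c2, the surface antigen of classical monocytes, fell from 67.8 to 12.1 CPM (log2 difference -2.37 ± 0.42, adjusted p = 0.00664). These 3 calls were lost when females were fitted alone, and that of Fn1 also on read counts and without female KO replicate 16, 1 or 7 or female WT replicate 39 or 30. Fn1 was at 14.4 CPM in female WT and at 1.75 to 3.29 in the other group means, so it may have passed the filter on low counts through the group in which it was high. Monocytes also make Cx3cr1, and their part in the female values was not tested. Female neuronal, astrocyte and oligodendrocyte sums were 1.12, 1.37 and 1.06 times the WT means, with overlapping ranges. For lymphocytes the male sums were 3.72 and 1.999 CPM and for erythroid cells 281 and 73.6 in KO and WT, each with an adjusted p of 0.0952. The endothelial and mural sums were 36.1 and 36.5 CPM in males and 33.8 and 43.8 in females (adjusted p = 0.886 and 0.0952). Among all these markers Slco1a4 (endothelial) and Ncr1 (lymphocytes) had no UMI in any library.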

How the data were processed

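Purified microglia of 18 samples in 4 groups were measured by bulk MARS-seq. Per the labels and the values, the authors' deposited files are a table of read counts and a table of UMI-corrected counts by gene, unscaled. Tools and build named in the submitters' processing notes are cutadapt, STAR, HTSeq and mm10, while versions, annotation, strand setting and UMI method were not given in the sources used here. Each table held 16 further columns that match no sample and were not used. Of 55414 identifiers, 52081 were given symbols from GENCODE M21, which held at least 99.8% of UMIs in each library.

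UMI counts were filtered with filterByExpr, which left 10948 genes, scaled by TMM and fitted with 1 mean per group over all 18 libraries in edgeR 4.0.16 (quasi-likelihood, robust, R 4.3.3; common biological coefficient of variation 17.8%). A gene passed at a Benjamini-Hochberg adjusted p under 0.05. The SE is the log2 fold change divided by the square root of F. The fit was tested on simulated data for males, where 50 of 50 genes changed 2-fold upward and 33 of 50 changed 1.5-fold upward were called. Replicate pairs of a group differed by more than counting noise (chi-square per degree of freedom at least 2.74 in 32 pairs). Marker sums were scaled by library total and compared with exact permutation tests in scipy 1.17.1. Likeness used log2 CPM with a prior count of 2. Alternatives included DESeq2 1.42.0, other scalings and filters, read counts, reads-per-UMI range as covariate, and leaving out libraries. For marker sums and reads per UMI, leaving out libraries was chosen after seeing the data.

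Cx3cr1 and the lists of related genes and markers were chosen with earlier results of these data known. Named genes were Cx3cr1, Chd8, passing fractalkine pathway genes with Cx3cl1, Adam10, Adam17, Ctss and Gnai2, up to 4 passing members per other list and direction, the 5 nearest tested genes on each side with passing neighbours, and the genes most and least like Cx3cr1.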

Additional observations from a re-analysis of the deposited data

Results flagged for a closer look

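In groups of 4 or 5 libraries, 9 sets of values among the 108 tested held a library far from the others of its group by Dixon's criterion, where chance gives about 1 in 20. Female KO replicate 33, the shallowest library, held 63.98 CPM of Gm33858 with the next library at 46.4, 17.9 CPM of Lyzl4 with the next at 4.46, and a homeostatic sum of 142610 CPM with the next at 95685. Its Cx3cr1 level of 2452 CPM was within the range of its group. Female WT replicate 31 held 1066 CPM of Rpsa, below the next library at 1292. Female WT replicate 34 held 33.4 CPM of Mobp with the next at 4.78, and 124 CPM of summed neuronal markers with the next at 34.2. Male WT replicate 11 held 10.1 CPM of Mobp with the next at 2.82, and 230 CPM of summed oligodendrocyte markers with the next at 190. Female KO replicate 7 held 137 CPM of summed monocyte markers with the next at 106.

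By the female minus male term of the edgeR fit, the KO effect differed between sexes for 4 of the genes named. Of all tested genes, 0.183% passed in this contrast. These 4 were named because they passed in a single sex, and the same libraries enter this term. Their adjusted p-values are therefore not separate support for a sex difference. Cbr2 differed by -2.86 (log2, adjusted p = 0.000573), Pf4 by -1.94 (adjusted p = 0.0113), Cd209f by -3.18 (adjusted p = 0.0153) and Napsa by -1.90 (adjusted p = 0.0412). The first 3 mark border-associated macrophages and Napsa monocytes. Without male KO replicates 6, 9 and 17 together, Pf4, Cd209f and Napsa no longer passed. Cd209f also did not pass without female WT replicate 39 or 30, and Napsa no longer passed in 16 of 28 alternatives, 13 of which left out a single library.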

How the results depend on the processing

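No paired analysis was possible because the groups share no replicate numbers. The log2 difference of Cx3cr1 kept its sign in each contrast under every alternative run and moved by less than the spread of the libraries. Of 3697 values for 126 effects of single genes, 3526 kept their direction and side of the threshold, 155 no longer passed, 16 newly passed and 0 reversed. Causes of the changes below were not tested. On read counts in place of UMIs, genes called were 235 in males (680 on UMIs), 125 in females (252), 10 for the difference between sexes (20), 1191 between sexes in WT (1858) and 314 in KO (731). With 1 sex fitted alone they were 1166 in males and 0 in females, and with reads-per-UMI range as covariate 119 in females, 252 between sexes in WT and 303 in KO. DESeq2 called 83 for the difference between sexes and 1109 between sexes in KO, and without a filter on low counts 63 genes differed between sexes. Without male KO replicates 6, 9 and 17 together, 202 male, 1 interaction and 78 KO sex calls were made. Leaving out 1 library gave 491 to 932, 70 to 676, 11 to 86, 1072 to 2377 and 166 to 1770 calls in the 5 contrasts in that order. Scaling by library total alone moved the share of calls that were higher in KO from 34.1% to 47.7% in females and from 54.3% to 64.3% in males.

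Fractalkine pathway calls became 1 in males with library total scaling, DESeq2, no filter, males alone, the covariate or the low reads-per-UMI range (0 to 1 with 1 library left out), and 0 in females on read counts, with females alone or with the covariate (0 to 2). Chemoattractant receptor calls in males became 0 on read counts, by library total and without the 3 male KO libraries and 2 in the low range (0 to 1), and in females 0 on read counts, at 10 CPM, alone or with the covariate and 2 with DESeq2 or no filter (0 to 4). Homeostatic calls in males became 1 on read counts and without the 3 libraries, 4 with DESeq2, 5 with males alone and 10 in the low range (1 to 4), and in females 0 on read counts, by library total, with no filter, alone, with the covariate and without the 3 libraries (0 to 3). Transcription factor calls in males became 0 on read counts and without the 3 libraries, 1 by library total or at 10 CPM and 4 with males alone or in the low range (0 to 3), and in females 1 on read counts or with DESeq2 (0 to 1). Neighbour calls in males became 2 on read counts and 3 without the 3 libraries (5 to 6), and in females 0 on read counts, alone or with the covariate and 1 in a window of 1 Mb (0 to 2). With 1 library left out, male KO over WT ranged from 6.75 to 9.93 for neuronal, 1.57 to 1.82 for astrocyte and 2.55 to 3.30 for oligodendrocyte sums, none passing with a male WT library left out, and from 1.74 to 2.10 for lymphocyte sums, which passed without male KO replicate 40 (2.03). Of the 5 genes most like Cx3cr1, 2 over all libraries and 2 within groups were kept by Spearman rho, 2 and 3 on read counts, and 2 to 5 with 1 library left out.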
